A study of Mus musculus with 25 samples.

Results

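The 4 genes Myh4, Myh1, Myh2 and Myh7, which encode the myosin heavy chains of adult limb muscle, were followed in the gastrocnemius of 25 mice. They were taken by symbol, all 4 had a row, and they are 4 of the 8829 genes in the table. All animals were male SAMP8 mice, an inbred senescence-accelerated strain that ages early and loses muscle function, and no normally ageing strain was compared here. Control mice (n = 11) received vehicle, and Thymol mice (n = 14) were given thymol, a phenolic monoterpene of thyme and oregano, by mouth in corn oil at 20 mg/kg per dosing day. Treatment began at 8 months of age and lasted 3 months per the labels, with dosing on most but not all days of the week per the study's methods, and each mouse gave 1 library. Mice are named by group and by the number at the end of their label, so that Thymol 20 is 1 mouse.

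Myosin heavy chain is the motor protein of the thick filament. Each muscle fibre is classed by the heavy chain it makes: Myh7 encodes the slow type I chain, which is also the beta chain of the heart, Myh2 the fast oxidative type IIa chain, Myh1 the type IIx chain and Myh4 the type IIb chain, the fastest and most glycolytic. In the mouse, the gastrocnemius is mostly fast, with its slow and oxidative fibres in the deep part, and adult fibres can shift along the series I, IIa, IIx and IIb with nerve activity, load, hormones and age.

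The 3 fast genes lie side by side on the forward strand of chromosome 11 (GRCm38, GENCODE M21). Myh2 spans chr11:67171027-67197517, Myh1 spans chr11:67200052-67224575 and Myh4 spans chr11:67238029-67260446. The gap from Myh2 to Myh1 was 2534 bases and that from Myh1 to Myh4 was 13453 bases. Myh7 lies alone of the 4 on the reverse strand of chromosome 14, at chr14:54970684-54994626, with the cardiac gene Myh6 next to its 3′ end.

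The promoters are shown because the 3 neighbours and Myh7 differ in sequence as well as in place. Each line gives the 250 bases before the RefSeq start on the coding strand (GRCm38.p6), and capitals mark a run of 20 bases that the 3 fast genes share. The windows are chr11:67237562-67237811 for Myh4, chr11:67199852-67200101 for Myh1, chr11:67170777-67171026 for Myh2 and, on the reverse strand, chr14:54994550-54994799 for Myh7, for which the more downstream of 2 starts was used.
Myh4: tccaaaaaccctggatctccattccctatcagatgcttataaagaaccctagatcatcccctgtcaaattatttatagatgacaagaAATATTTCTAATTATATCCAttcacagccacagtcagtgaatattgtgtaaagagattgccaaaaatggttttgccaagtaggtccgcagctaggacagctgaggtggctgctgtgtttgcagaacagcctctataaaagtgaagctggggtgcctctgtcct
Myh1: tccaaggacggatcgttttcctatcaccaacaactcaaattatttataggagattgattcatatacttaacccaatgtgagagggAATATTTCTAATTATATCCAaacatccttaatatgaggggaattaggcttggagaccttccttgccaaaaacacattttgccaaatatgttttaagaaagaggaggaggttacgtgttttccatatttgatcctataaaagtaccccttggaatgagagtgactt
Myh2: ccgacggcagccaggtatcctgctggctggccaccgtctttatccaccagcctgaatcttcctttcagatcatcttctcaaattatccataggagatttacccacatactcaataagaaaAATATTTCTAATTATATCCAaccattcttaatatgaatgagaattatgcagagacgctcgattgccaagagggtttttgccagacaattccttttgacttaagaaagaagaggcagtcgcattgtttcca
Myh7: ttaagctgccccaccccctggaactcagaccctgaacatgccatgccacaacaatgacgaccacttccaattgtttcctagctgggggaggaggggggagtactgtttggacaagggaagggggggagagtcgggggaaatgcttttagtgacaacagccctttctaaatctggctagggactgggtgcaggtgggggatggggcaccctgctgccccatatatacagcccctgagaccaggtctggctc

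The run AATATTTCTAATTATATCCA began 163 bases before the start in Myh4, 165 bases before it in Myh1 and 130 bases before it in Myh2. It was found in 3 of 32536 promoters of this kind (0.00922%), which were those of Myh1, Myh2 and Myh4, and it was absent from the Myh7 window. The longest run that Myh7 shared with any of the other 3 was 9 bases, with Myh2. The letters TATAAA, searched on both strands, stood at 3 places in Myh4 and 2 in Myh1. The nearest to the start were 31 and 32 bases before it. TATAAA was absent from the Myh2 and Myh7 windows and occurred in 12.3% of all promoters. Since the shared run lies nearer to the start in Myh2, less sequence after it was searched there. The absence in Myh2 therefore holds for this window only. A MEF2 motif was present once in Myh4 and once in Myh1 (2.89% of all promoters), and a CArG box once in Myh4 (1.48%). In both genes the MEF2 match wholly contains a TATAAA match counted above. The E-box CANNTG occurred at 2 places in Myh4 and 2 in Myh7, against 66.2% of all promoters with at least 1. These matches describe letters in the windows and were not measured as sites.

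Myh4 was by far the most abundant of the 4. QuantSeq reads the 3′ end of each polyadenylated transcript, so that CPM (read counts scaled to a common library size) of different genes can be compared without correcting for length. Together the 4 genes held between 2.69% and 4.47% of the reads that a library had on the 8829 genes of the table (median 3.67%). These reads numbered 4463818 to 9463418 per library. In log2 CPM, Myh4 had a lowest value of 14.38, a median of 15.03 and a highest of 15.39 in Control mice, and 14.59, 15.06 and 15.39 in Thymol mice. It ranked 6 among the 8829 genes by mean level. The groups overlapped over almost their whole range, and Control 14 and Thymol 6 were the lowest mice of their groups.

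Myh2 and Myh1 came next. Myh2 had a lowest, median and highest log2 CPM of 9.93, 10.45 and 11.21 in Control mice and 8.69, 10.54 and 11.23 in Thymol mice. Myh1 had 9.86, 10.30 and 10.97 in Control mice and 9.59, 10.33 and 10.79 in Thymol mice. The groups overlapped for both genes. Control 14 was the highest Control mouse for both, and Thymol 20 was the lowest of all mice for Myh2 while its Myh1, at 10.38, lay mid-range.

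Myh7 was lowest and most variable. Its lowest, median and highest log2 CPM were 6.62, 8.61 and 9.62 in Control mice and 1.68, 7.87 and 10.08 in Thymol mice. The groups overlapped, but the Thymol mice extended beyond the Control mice on both sides, with 5 of 14 outside the Control range. The highest were Thymol 6, Thymol 30 and Thymol 11, and the lowest were Thymol 20 and, at 5.64, Thymol 3.

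**Figure D1:**
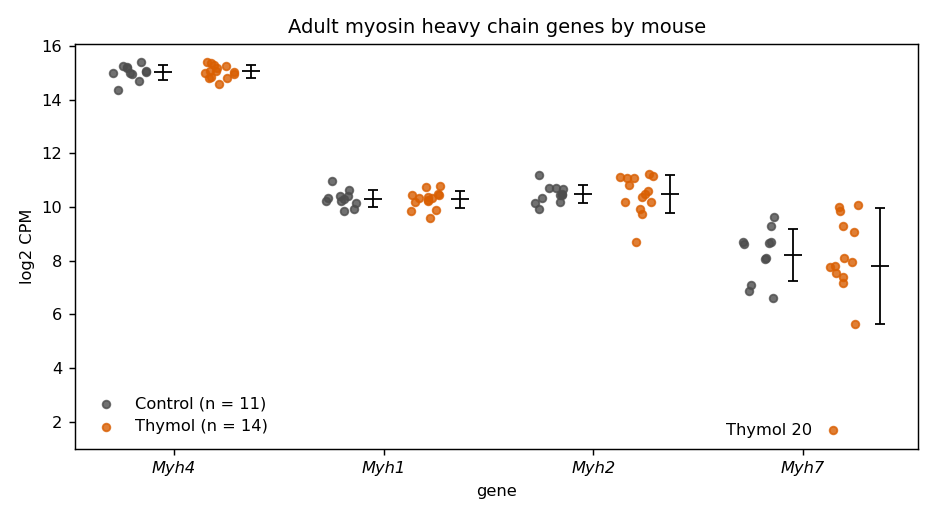
Level of each gene in log2 CPM (vertical axis) in 11 Control and 14 Thymol mice, with 1 point per mouse and the group mean and SD as bars. The groups overlapped for all 4 genes, Myh4 lay above all others in every mouse, and Thymol 20 lay at 1.68 for Myh7.

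The order of the levels was Myh4, then Myh2 and Myh1, then Myh7. Myh4 exceeded Myh2 in 25 of 25 mice, by 23.5-fold on the mean log2 scale (permutation of signs within mice, two-sided, p = 1e-05, the smallest that 100000 permutations can give). Myh2 exceeded Myh1 in 18 mice and was lower in 7, a mean log2 difference of 0.18 ± 0.57 (SD, n = 25). No difference in mean level between these neighbours was detected (permutation of signs within mice, two-sided, p = 0.123). The lowest difference, -1.68, was that of Thymol 20, and this test was not run without that mouse. Myh1 exceeded Myh7 in 24 of 25 mice, by 4.96-fold (permutation p = 1e-05), and the exception was Thymol 6. Myh2 exceeded Myh7 in 25 of 25 mice, by 5.63-fold.

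Part of the 3′ sequence of these genes is shared with relatives, and a read that matches 2 genes equally may be lost in counting. Of the 31-base words in the last 500 bases of the annotated transcripts, 21.9% in Myh4, 32% in Myh1 and 19.2% in Myh2 also occurred in another gene, mostly in one another. In Myh7 50.8% also occurred in Myh6, and in Myh6 52.4% occurred in Myh7. The study ran more sequencing cycles than a word has bases, so these shares can overstate the reads that match 2 genes. Levels between members therefore carry an uncertainty of unknown size, while the comparison of 1 gene between mice is less exposed to it. At the 3′ end, antisense transcripts are annotated over Myh1 (Myhas), Myh2 (9430073C21Rik) and Myh7 (Mhrt), and none of them has a row in the table. The counting strand is not given in the sources used here. Whether reads of these transcripts were counted with the myosin genes is therefore not known.

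As shares of the summed CPM of the 4 genes, Myh4 held 80.4% to 95.8% of a mouse's total (median 92.1%). Myh2 held 1.13% to 8.99% (median 3.86%), Myh1 1.82% to 7.58% (median 3.34%) and Myh7 0.00878% to 3.75% (median 0.671%). The type IIb gene therefore gave at least 80.4% of the adult heavy chain signal in every mouse.

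Control 14 had the most mixed profile, with 80.4% Myh4, 7.58% Myh1, 8.99% Myh2 and 2.99% Myh7. Thymol 28 had the highest Myh4 share, 95.8%, with the lowest Myh1 share, 1.82%. Thymol 20 also had a high Myh4 share, 95.2%, but 3.64% Myh1, 1.13% Myh2 and 0.00878% Myh7.

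**Figure D2:**
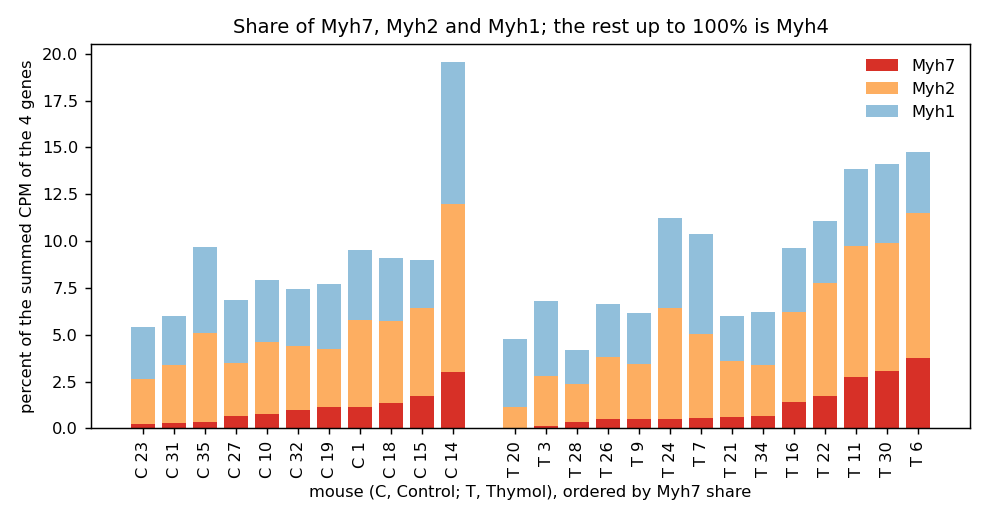
Stacked bars give the percent of the summed CPM of the 4 genes held by Myh7, Myh2 and Myh1 in each of 25 mice, ordered by Myh7 share within each group, and Myh4 makes up the rest to 100%. Control 14 stands highest with 80.4% Myh4, and Thymol 20 has almost no Myh7 (0.00878%).

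The study gave thymol to ageing SAMP8 mice to follow muscle function, and the table allows the fibre type genes to be compared with vehicle. No difference between Thymol and Control was detected for any of the 4 genes. Mean log2 CPM of Myh4 was 15.02 ± 0.28 (SD) over the 11 Control mice and 15.05 ± 0.24 over the 14 Thymol mice, a difference of 0.037 (standard error 0.10, 95% interval -0.17 to 0.25). For Myh1 it was 10.32 ± 0.31 and 10.29 ± 0.33, a difference of -0.031 (standard error 0.12, 95% interval -0.27 to 0.21). As folds, these intervals span 0.886 to 1.19 for Myh4 and 0.829 to 1.15 for Myh1, so that changes of the 2 genes beyond these bounds lie outside the intervals.

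Myh2 averaged 10.48 ± 0.35 in Control and 10.48 ± 0.71 in Thymol mice, a difference of -0.0031 (standard error 0.21, 95% interval -0.43 to 0.42). Myh7 averaged 8.22 ± 0.97 and 7.81 ± 2.17, a difference of -0.40 (standard error 0.62, 95% interval -1.67 to 0.86). The fold interval of Myh7, 0.315 to 1.81, was wide, and only large changes of the slow gene could have been seen. Of the 14 Thymol mice, 8 lay above the Control median for Myh4, 8 for Myh1, 8 for Myh2 and 5 for Myh7.

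The unadjusted p-values were 0.722 for Myh4, 0.792 for Myh1, 0.988 for Myh2 and 0.518 for Myh7 (limma), and the adjusted p was 0.9999 for each (limma, Benjamini-Hochberg over 8829 genes). Thus 0 of 4 members passed an adjusted p of 0.05, beside 0 of all 8829 genes (0%), and 0 of 4 passed an unadjusted p of 0.05, beside 312 genes (3.53%). With voom on the recovered reads these counts over all genes were 0 and 304.

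The sign for the slow and IIa genes turned without Thymol 20. Without this mouse the Thymol mean of Myh7 was 8.28 ± 1.31 (SD, n = 13), the difference 0.067 and the unadjusted p 0.873 (limma). The difference of Myh2 became 0.13, with an unadjusted p of 0.410, and its sign turned in 10 of the 25 fits that left out 1 mouse.

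**Figure D3:**
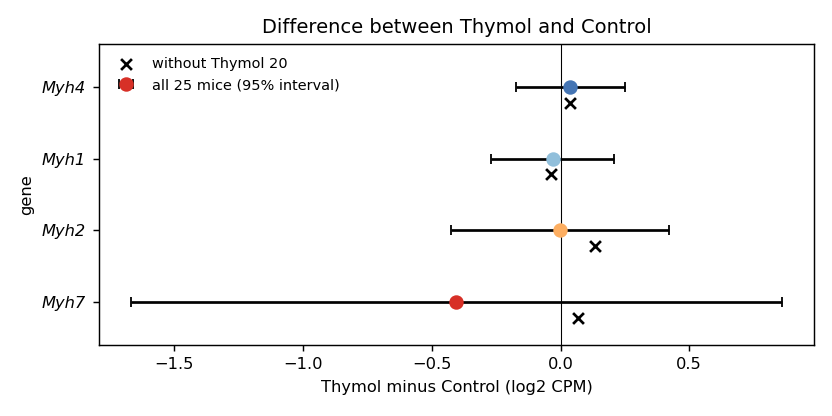
Thymol minus Control difference in log2 CPM for each gene, with circles and bars for the limma estimate and its 95% interval over 25 mice and crosses for the estimate without Thymol 20. All 4 intervals include 0, and the Myh7 estimate moves from -0.40 to 0.067 without that mouse.

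The composition of the heavy chains did not differ detectably either. The Myh4 share averaged 91.07% ± 3.79 (SD) in the 11 Control mice and 91.02% ± 3.62 in the 14 Thymol mice. The Myh1 share averaged 3.68% ± 1.41 and 3.47% ± 0.960, the Myh2 share 4.19% ± 1.79 and 4.34% ± 2.08, and the Myh7 share 1.05% ± 0.791 and 1.18% ± 1.19. Each of the 4 adjusted p was 0.974 (two-sided permutation of mouse labels, Benjamini-Hochberg over 4). For the log2 ratios of the 6 pairs of genes the differences lay between -0.028 for Myh1 over Myh2 and 0.44 for Myh4 over Myh7, and each adjusted p was 0.914 (permutation, Benjamini-Hochberg over 6).

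The spread between mice differed among the 4 genes. The SD within groups was 0.26 for Myh4, 0.32 for Myh1, 0.58 for Myh2 and 1.75 for Myh7 on the log2 scale, where the median gene of the table had 0.28. Myh7 ranked 5 and Myh2 427 of 8829 by this SD, whereas Myh1 and Myh4 ranked 3343 and 4884. At the median read number of each gene, counting error would give an SD of 0.0028 to 0.031, far below the spread observed. Counting error is larger for Myh7 in Thymol 20, which had 27 reads.

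Genes of like level gave a stricter comparison. Of the 555 genes within 1 log2 unit of Myh7, 0 had a wider spread. The numbers with a wider spread were 0 of 8 for Myh4, 2 of 52 for Myh2 and 10 of 65 for Myh1. Without Thymol 20, SD fell to 1.17 for Myh7 and 0.44 for Myh2 and their ranks became 31 and 1343, with 0 of 456 and 2 of 50 genes of like level still wider.

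Across all mice the highest and lowest Myh7 differed 338-fold, and 21.7-fold without Thymol 20. The corresponding ratio was 2.02 for Myh4, 2.59 for Myh1 and 5.78 for Myh2. Thymol 20 had 27 Myh7 reads (exact 95% Poisson interval 17.8 to 39.3, counting error only), where the median mouse had 2162. The library of Thymol 20 had 8845982 reads on the genes of the table.

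Thymol mice spread more than Control mice for Myh2, with a mean absolute deviation from the group median of 0.53 against 0.25, but the difference did not pass the test (permutation p = 0.0514, adjusted p = 0.206 over 4). For Myh7 these values were 1.39 and 0.74 (permutation, adjusted p = 0.492). Without Thymol 20 the difference in this deviation went from 0.65 to 0.27 for Myh7 (permutation, adjusted p = 0.821) and from 0.28 to 0.18 for Myh2 (permutation, adjusted p = 0.308). For Myh4 and Myh1 they differed by 0.0054 and 0.024.

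The 4 genes did not vary independently. Each correlation was taken over 25 mice on log2 CPM with the group mean removed, with two-sided permutation p and Benjamini-Hochberg adjustment over 6 pairs. Myh2 and Myh7 rose and fell together, with Pearson r = 0.86 (permutation p = 2e-05, adjusted p = 0.00012) and Spearman rho = 0.73 (adjusted p = 0.00114). Without the 2 mice farthest from the Myh2 median, Thymol 11 and Thymol 20, r was 0.70 (permutation p = 0.00046). It was 0.91 in Thymol mice (permutation p = 4e-05) and 0.56 in Control mice, where it did not pass the test (permutation p = 0.0761).

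Myh4 and Myh2 ran in opposite directions, with r = -0.50 (permutation p = 0.00743, adjusted p = 0.0223) and rho = -0.64 (adjusted p = 0.00345). Without Thymol 6 and Control 14, the mice farthest from the Myh4 median, r was -0.37 (permutation p = 0.0937). The sign held, but the size of r and the call depended in part on these mice. In the other direction, r was -0.65 without Thymol 20 (permutation, adjusted p = 0.00219) and -0.57 with quantile normalization (permutation, adjusted p = 0.00501). Without Control 14 alone it was -0.44 (permutation, adjusted p = 0.142), and with each library centred on its median -0.44 (permutation, adjusted p = 0.0705), so that the call was lost in both. Within Control mice r was -0.68 (permutation p = 0.0250) and within Thymol mice -0.48 (permutation p = 0.0768).

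Myh4 and Myh7 gave r = -0.38 (permutation p = 0.0486, adjusted p = 0.0972) and rho = -0.49 (adjusted p = 0.0324). Without Thymol 20 r was -0.55 (adjusted p = 0.0110), and without Thymol 6 and Control 14 it was -0.25 (permutation p = 0.286). This pair therefore passed or missed the threshold with the mice included.

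Myh1 was not detectably related to the other 3. Its r was -0.33 with Myh4 (adjusted p = 0.166), 0.28 with Myh2 (adjusted p = 0.237) and -0.082 with Myh7 (adjusted p = 0.707). Without Thymol 6 the first of these was -0.50 (adjusted p = 0.0278). In bulk tissue, fewer fibres of a type and less RNA per fibre cannot be told apart.

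**Figure D4:**
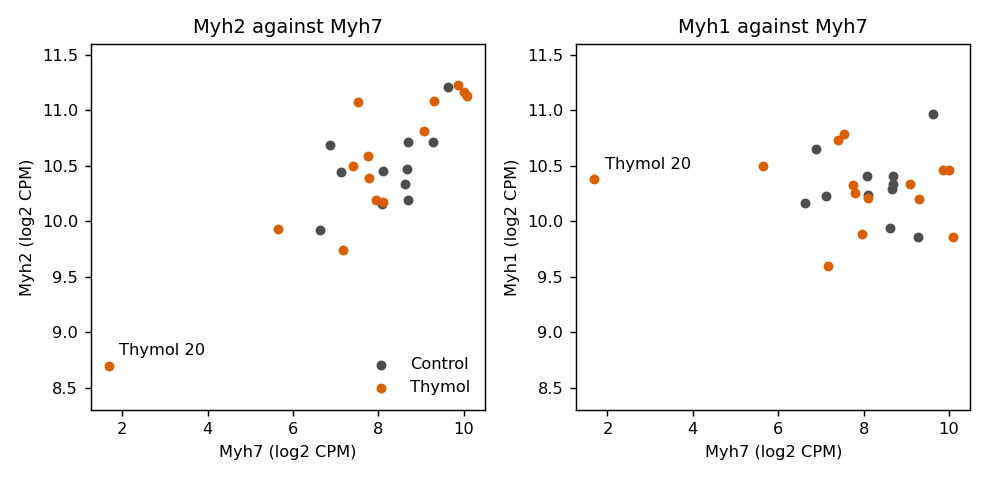
Myh2 (left) and Myh1 (right) against Myh7, all in log2 CPM, with 1 point per mouse (dark, Control; orange, Thymol). Myh2 rose with Myh7 (r = 0.86, and 0.73 without Thymol 20), while no relation was detected for Myh1 (r = -0.082).

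The members were then compared with other genes of slow and fast fibres. Myh7 and the fast IIa gene Myh2 moved with the slow genes, Myh4 moved with the fast genes, and no relation of Myh1 to either was detected. Of 14 slow-fibre genes (thin-filament troponins and tropomyosin, light chains, calcium handling) 13 were in the table, and their mean log2 CPM was compared with each member over 25 mice, with adjustment over 8 relations. Myh7 followed this mean closely (r = 0.95, rho = 0.98, adjusted p = 8e-05, permutation), as did Myh2 (r = 0.85, rho = 0.78, adjusted p = 8e-05). Without the 2 mice farthest from each gene's median r was 0.99 and 0.76. Myh4 ran against the slow mean (r = -0.53, rho = -0.57, adjusted p = 0.00687, permutation), and without Thymol 6 and Control 14 this was -0.41 (permutation p = 0.0629). No relation to it was detected for Myh1 (r = -0.019, rho = -0.052, adjusted p = 0.931).

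With the mean of 14 fast-fibre genes, Myh4 gave r = 0.70 and rho = 0.77 (adjusted p = 0.000267, permutation), and r = 0.66 without Thymol 6 and Control 14. Myh2 gave r = -0.66 and rho = -0.79 (adjusted p = 0.00082, permutation), and -0.78 without Thymol 11 and Thymol 20. Myh7 gave r = -0.54 and rho = -0.67 (adjusted p = 0.00687, permutation), and -0.64 without Thymol 20 and Thymol 3. Myh1 gave r = -0.21 and rho = -0.21 (adjusted p = 0.373, permutation).

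Gene by gene, r with Myh7 was positive for 13 of 13 slow genes, from 0.16 for Csrp3, a muscle stress sensor, to 0.99 for Tnnc1, the slow and cardiac troponin C. With Myh4 it was negative for 13 of 13 slow genes and positive for 13 of 14 fast genes. The exception was Myl1, the fast alkali light chain, at -0.17, and its own level varied with an SD of 1.20 where most fast genes varied by under 0.3.

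**Figure D5:**
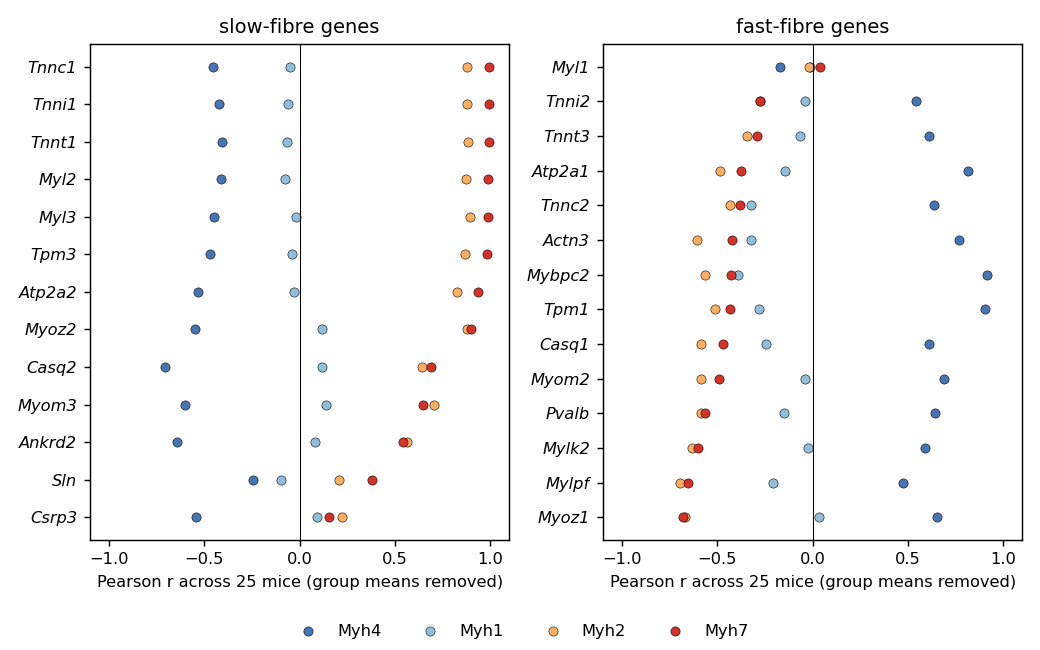
Pearson r of each slow-fibre (left) and fast-fibre gene (right) with Myh4, Myh1, Myh2 and Myh7 over 25 mice, group means removed, ordered by r with Myh7. Myh7 and Myh2 lie to the right of 0 for all 13 slow genes, Myh4 to the right for 13 of 14 fast genes, and Myh1 stays between -0.39 and 0.14 in both lists.

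The genes most like each member were ranked by r over the 25 mice, as a description across genes that share libraries and scaling. For Myh7 they were Tnnc1, Tnni1 and Tnnt1, the 3 slow troponin genes, Myh6 and Myl2, a slow regulatory light chain, all with r between 0.987 and 0.994. The most opposed were Ldha, the muscle-type lactate dehydrogenase subunit (r = -0.74), Drap1 (-0.71) and Dusp3 (-0.71). Without Thymol 20 these ranked 9, 7 and 62 at this end.

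For Myh2 the nearest were Ldhb, the heart-type lactate dehydrogenase subunit (r = 0.96), Idh2, a mitochondrial isocitrate dehydrogenase (0.96), Homer2 (0.91), Myl3, a slow light chain (0.89) and Strit1, a micropeptide that acts on the calcium pump (0.89). Without Thymol 20 Ldhb and Idh2 still ranked 1 and 2, while Myl3 and Strit1 ranked 26 and 23. Drap1 (-0.77), Serinc2 (-0.76) and Dusp3 (-0.74) were the most opposed to Myh2 over all mice, and without Thymol 20 they ranked 5, 127 and 41 at this end.

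For Myh4 the nearest were Mybpc2, the fast myosin-binding protein C of the thick filament (r = 0.91), Tpm1, a tropomyosin (0.90), Synm, an intermediate filament protein (0.87), Anapc5 (0.86) and Maf, a transcription factor (0.84). The most opposed were Gabarapl1, an autophagosome protein (-0.82), Cd36, a fatty acid transporter (-0.81) and Lpl, lipoprotein lipase (-0.80).

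For Myh1 the nearest were Got1, an aspartate aminotransferase (r = 0.74), and 4 genes of the mitochondrial respiratory chain and ATP synthase, Atp5f1b (0.72), Atp5mc3 (0.72), Ndufa9 (0.70) and Cox4i1 (0.69). Mir99ahg (-0.69), Qser1 (-0.67) and Acbd3 (-0.67) were the most opposed. No sarcomere gene was among these 8.

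Thymol 20 was the lowest mouse for 8 of the 13 slow genes, with Tnnt1 at 2.83, Myl3 at 3.32 and Tnnc1 at 2.17 log2 CPM against means of 8.66, 9.24 and 7.64 over all mice. It was the highest mouse for Csrp3 (6.85) and mid-range for Ankrd2 (6.47) and Sln (3.51). It was also the highest mouse for 2 of the 14 fast genes, Mylpf (13.93) and Myoz1 (10.78), while its mean over the fast genes, 12.14, lay inside the range of 11.81 to 12.37 over all mice. Its library had 8845982 reads on the genes of the table, and 25.4% of them were mitochondrial, a share within the range of the other mice.

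Myh6, the cardiac alpha chain, followed Myh7 with r = 0.99. It had 8.91 to 15.3 reads per 100 Myh7 reads in 24 mice and 22.2 in Thymol 20, where it rested on 6 reads. Given the 3′ sequence the 2 genes share, Myh6 and Myh7 counts are uncertain with respect to each other. Of 11 other myosin heavy chain genes 6 were in the table. Of these, 0 passed an adjusted or an unadjusted p of 0.05 (limma), beside 0% and 3.53% of all genes. Myh6 differed by -0.15 (log2, unadjusted p = 0.782, limma), Myh9, a non-muscle chain, by -0.016 (p = 0.855, limma), Myh11, the smooth muscle chain, by 0.046 (p = 0.816, limma) and Myh14, a non-muscle chain, by 0.030 (p = 0.674, limma).

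No difference between the groups was detected for the partners of the heavy chains either. Of 12 light chain and light chain kinase genes, 16 thick-filament and myosin chaperone genes, 13 slow and 14 fast genes, 0 passed an adjusted or an unadjusted p of 0.05 in either direction (limma), beside 0% and 3.53% of all genes. The median log2 difference was -0.020, 0.0089, -0.15 and -0.0042 in these lists, beside -0.0014 over all 8829 genes. In the slow list 11 genes were lower and 2 higher in Thymol mice without passing, beside 4454 lower and 4375 higher of all 8829 genes. Tnni1 differed by -0.31 (standard error 0.56) and Tnnt1 by -0.31 (standard error 0.58). Thymol 20 was the lowest mouse for 8 genes of this list. The slow genes largely moved together (median r with Myh7 0.94), so their directions are not independent.

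Of 34 transcription factors, cofactors and signalling genes known to act on fibre type, 0 passed the adjusted p and 1 passed the unadjusted p, beside 3.53% of all genes. This was Ppard, a nuclear receptor of oxidative metabolism, with a mean log2 CPM of 4.04 ± 0.13 (SD) in the Control and 3.81 ± 0.28 in the Thymol group, a difference of -0.23 (standard error 0.10, unadjusted p = 0.0214, adjusted p = 0.9999, limma, Benjamini-Hochberg). Its r with the 4 members lay between -0.26 and 0.10. Mef2c and Nfix, the most abundant regulators, differed by -0.023 and -0.047.

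All 8 skeletal muscle markers were expressed, and their summed level ranged from 16.61 to 16.86 log2 CPM in Control and from 16.53 to 16.84 in Thymol mice. Their mean moved with Myh2 (r = 0.84, rho = 0.88, adjusted p = 0.00036, permutation) and Myh7 (r = 0.68, rho = 0.73, adjusted p = 0.00612), with r = 0.85 and 0.74 without the 2 farthest mice, in a family of 36 relations that was computed after the values had been seen. The single markers differed, with r to Myh2 from -0.47 for Ckm, muscle creatine kinase, through -0.071 for Acta1, skeletal actin, to 0.72 for Actn2, a Z-disc actinin, and 0.83 for Mb, myoglobin. None of the other 34 relations, with depth, mitochondrial share, muscle markers and markers of fat, leukocytes, endothelium, connective tissue, nerve and blood, reached an adjusted p of 0.05. The closest was Myh4 with the muscle markers (r = -0.52, rho = -0.51, adjusted p = 0.0876, permutation, and r = -0.39 without the 2 farthest mice).

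Of the markers of other tissues, 9 of 10 for fat and 10 of 10 for connective tissue had a row, and their summed levels ranged from 10.95 to 12.53 and from 10.20 to 12.19 log2 CPM in Control and from 10.74 to 12.29 and from 10.33 to 11.79 in Thymol mice. Their part in the heavy chain values was not tested beyond these relations.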

How the data were processed

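QuantSeq 3′ mRNA libraries of 25 gastrocnemius samples were analysed. Per the labels and the study's methods, the authors mapped reads to GRCm38 with STAR 2.5.3, counted them with HTSeq 0.6.1, filtered low genes and scaled by TMM in edgeR. The deposited table holds log2 CPM with about 2 reads added, so differences of low genes are understated. Whole reads were recovered from 100% of values within 0.1 read. Groups came from sample titles. Differences were tested on the deposited log2 values with limma 3.58.1 (R 4.3.3, trend, Benjamini-Hochberg over 8829 genes, threshold 0.05), in place of the authors' count test. Shares, ratios, spreads and correlations were tested by 100000 two-sided permutations (Python 3.11.15, numpy 2.4.6, scipy 1.17.1), within groups for correlations. Both procedures were tested on simulated data. Members and gene lists were chosen with earlier results of these data known. Genes named were the members, for each list the 2 with the smallest p and the 2 most abundant (not all reported), and for each member the 5 genes with the highest and the 3 with the lowest r. Thymol 20, genes described for that mouse, and the extreme genes of a list were singled out after values were seen. Alternatives covered scaling, moderation, weights, voom, a block for the first label number, library number and each mouse left out. Annotation was GENCODE M21, and promoters were RefSeq, matched for 4 of 4 members. The Poisson interval of the Myh7 reads and the counting SDs cover counting error only, because PCR reads carried no molecular identifiers. The limma intervals of the group differences rest on the variation between mice.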

Additional observations from a re-analysis of the deposited data

How the results depend on the processing

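Over 34 results and 996 recomputed values, 909 were unchanged, 73 changed sign, 3 became 0, 9 lost significance and 2 gained it. Unchanged means the same direction and side of the threshold, or for counts of genes a value near the main count. Under all alternatives, voom included, 0 genes passed the adjusted threshold (limma, Benjamini-Hochberg), and the count at an unadjusted p under 0.05 ranged from 287 to 348, beside 312, and was 234 of the 6622 genes tested when the 75% with the highest mean were kept. No difference between groups in level, share, ratio or spread passed its adjusted test under any alternative, so the sign changes of those results concern differences not distinguishable from 0, and the causes were not tested. Myh4 differed by -0.014 with quantile normalization, and Myh2 by 0.054 with sample weights and by 0.0054 with library number as a covariate. With the replicate block for the first label number, Myh7 differed by -0.43 and 296 genes had an unadjusted p under 0.05, and no call changed. Sample weights gave -0.15 for Myh7. As a difference in mean rank, the shares of Myh1 and Myh2 and the ratio of Myh4 to Myh2 gave 0, the share of Myh7 -0.812 and the ratio of Myh4 to Myh1 -1.30.

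With each mouse left out in turn, log2 differences ranged from -0.027 to 0.075 for Myh4, from -0.077 to 0.034 for Myh1, from -0.061 to 0.13 for Myh2 and from -0.58 to 0.067 for Myh7, whose sign turned without Thymol 20 only. Share differences ranged, in percentage points, from -1.11 to 0.394 for Myh4, from -0.356 to 0.176 for Myh1, from -0.123 to 0.621 for Myh2 and from -0.0758 to 0.315 for Myh7. Log2 ratio differences ranged from -0.061 to 0.12 for Myh4 over Myh1, from -0.099 to 0.13 for Myh4 over Myh2, from -0.032 to 0.65 for Myh4 over Myh7, from -0.17 to 0.055 for Myh1 over Myh2 and from -0.11 to 0.58 for Myh1 over Myh7. Spread differences ranged from -0.027 to 0.041 for Myh4 and from -0.015 to 0.070 for Myh1. Leaving out 1 mouse gave r from -0.50 (without Thymol 6) to -0.12 (without Control 14) for Myh4 with Myh1, from -0.65 to -0.44 (without Control 14) for Myh4 with Myh2, from -0.55 (without Thymol 20) to -0.31 for Myh4 with Myh7, and from -0.14 to 0.080 for Myh1 with the slow mean.

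In the 11 Control mice alone, relations that passed over all mice missed the adjusted threshold for Myh4 with Myh2 (r = -0.68), Myh2 with Myh7 (0.56), Myh2 with the slow mean (0.60), and Myh2 (-0.60) and Myh7 (-0.40) with the fast mean, and r was 0.065 for Myh1 with Myh7 and 0.046 for Myh1 with the slow mean. In the 14 Thymol mice alone, Myh4 missed it with Myh2 (-0.48) and with the slow mean (-0.50). Median centring gave -0.44 for Myh4 with Myh2, which then missed the threshold (permutation, adjusted p = 0.0705). Within a group fewer mice enter, and no difference between the groups' correlations was tested. The relations of Myh7 with the slow mean and of Myh4 with the fast mean passed under every alternative run. The values are polyadenylated RNA of whole muscle, so fibre numbers and protein were not measured, and Myh7 in Thymol 20 rests on 27 reads.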
